A study of Mus musculus with 1 sample.

Results

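The 47 genes described here encode the subunits, activators, inhibitor and assembly factors of the proteasome, measured in single cells of mouse gastric organoids. They were chosen by name as the genes whose symbol starts with Psma, Psmb, Psmc, Psmd, Psme, Psmf or Psmg and a number, out of 32285 genes in the table. Pseudogene names and the 3 immunoproteasome genes Psmb8, Psmb9 and Psmb10 were left out. The rule uses names and no measured level. By role they are 8 α and 8 β subunits of the core particle, 9 base and 8 lid subunits of the regulatory particle, 5 activators, 1 inhibitor and 7 assembly factors. The remaining member, Psmc3ip, matches by name only: it encodes a factor of meiotic recombination and is not a proteasome subunit.

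Organoids are epithelial cultures that grow as hollow spheres in a gel. The cells came from stomach organoids of wild type genotype with no treatment, taken 7 days after seeding and dissociated with trypsin. There was 1 library, with no replicate, so no difference was tested and every interval is a 95% interval that covers counting error only. The strain, sex and number of mice are not in the labels, and the organoid genotypes KP and EKP named in the series text were not analysed here.

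The proteasome degrades proteins that carry ubiquitin chains. Its core particle is a stack of rings, with α subunits forming the gated outer rings and β subunits the inner rings that hold the proteolytic sites. The regulatory particle caps the core: its base holds the ATPases that unfold substrates, and its lid removes the ubiquitin chain. The subunits are needed in fixed ratios, and the transcription factor Nfe2l1 raises their genes together when proteolysis falls short. Activators such as Psme1 and Psme2 cap the core in place of the regulatory particle.

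The promoters of 4 core genes are printed as examples, each picked with a match, because their start regions differ in the motifs searched. They were taken from RefSeq (build GRCm38.p6), each from 250 bases before to 50 after the annotated start, and a window was matched for 39 of the 47 genes. The antioxidant response element TGACNNNGC, which Nfe2l1 and Nfe2l2 can bind, and CCAAT, the box bound by the factor NF-Y, were searched on both strands, and capitals mark the matches. Psmb5 lies at chr14:54617946-54618245 on the minus strand, with TGACGTCGC from position -47 relative to the start. Psmb6 lies at chr11:70525107-70525406 on the plus strand, with TGACGGAGC from position -9. Psmb3 lies at chr11:97703184-97703483 on the plus strand, with CCAAT from positions -85 and -43. Psma7 lies at chr2:180042415-180042714 on the minus strand, with CCAAT from position -196.
Psmb5: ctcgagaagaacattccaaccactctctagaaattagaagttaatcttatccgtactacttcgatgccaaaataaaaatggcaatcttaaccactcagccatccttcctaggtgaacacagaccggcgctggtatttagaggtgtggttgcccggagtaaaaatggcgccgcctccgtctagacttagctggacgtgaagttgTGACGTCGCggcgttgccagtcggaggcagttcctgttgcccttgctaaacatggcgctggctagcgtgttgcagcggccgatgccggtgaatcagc
Psmb6: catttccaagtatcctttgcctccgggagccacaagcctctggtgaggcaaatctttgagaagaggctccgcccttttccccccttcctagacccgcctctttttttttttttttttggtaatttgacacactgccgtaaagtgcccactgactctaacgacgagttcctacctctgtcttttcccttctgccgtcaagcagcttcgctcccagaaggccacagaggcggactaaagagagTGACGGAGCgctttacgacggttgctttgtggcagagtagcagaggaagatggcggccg
Psmb3: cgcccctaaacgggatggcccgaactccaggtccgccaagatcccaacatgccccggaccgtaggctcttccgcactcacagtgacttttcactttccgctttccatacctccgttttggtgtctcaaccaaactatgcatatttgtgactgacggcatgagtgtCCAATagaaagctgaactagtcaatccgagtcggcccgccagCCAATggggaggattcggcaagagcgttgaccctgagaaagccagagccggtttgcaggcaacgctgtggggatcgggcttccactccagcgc
Psma7: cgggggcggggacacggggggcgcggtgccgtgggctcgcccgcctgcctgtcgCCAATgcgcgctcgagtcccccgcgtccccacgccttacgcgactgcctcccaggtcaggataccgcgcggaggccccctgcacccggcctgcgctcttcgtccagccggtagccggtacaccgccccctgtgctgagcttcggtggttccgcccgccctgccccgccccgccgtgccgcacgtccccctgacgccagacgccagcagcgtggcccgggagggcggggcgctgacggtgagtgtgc

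TGACNNNGC was found in 6 of 39 members (15.4%), against 13.99% of the 27025 genes in the RefSeq table, which is close to that share. The 6 were Psmb5, Psmb6, Psmc6, Psmd12, Psme4 and Psmd9. CCAAT was found in 14 of 39 members (35.9%) and in 41.1% of all genes. Among the core α genes it was in 5 of 7, and among the core β genes in 2 of 5. The core genes Psmb4, Psma4 and Psma5 had a match of neither motif, and a link of motifs to variation across cells was not tested. A match describes the letters of the window and is not evidence of binding.

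The library held 20236916 gene UMIs (unique molecular identifiers, each counting 1 captured RNA molecule) in 1991 barcodes. A barcode was kept as a cell if it had 500 or more detected genes and no more than 20% mitochondrial UMIs, which gave 1892 cells with a median of 8512.5 UMIs (range 890 to 47183) and 2220 genes. The epithelial markers Epcam, Krt8, Krt18 and Cdh1 had a UMI in 52.1% to 99.6% of cells. Of 14 fibroblast, immune and endothelial markers, 6 had no UMI and the highest, Plvap, had one in 1.64% of cells. Members were seen in nearly every cell: 1 cell had no member UMI, and the median was 36 per cell, with 13 at the 5th and 109 at the 95th percentile.

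Summed over the 47 genes, proteasome transcripts stood at 4183 CPM (4155 to 4211), which is 0.418% of gene UMIs. CPM is the number of UMIs of a gene, summed over cells, per 1000000 gene UMIs of those cells. The libraries were read from the 3' end with 1 count per molecule, so levels of different genes were compared without division by transcript length. Over the 43 members with at least 100 UMIs, the Spearman correlation of level with transcript length was -0.195. It was 0.169 within the core and 0.466 within base plus lid, so length was not tied to level in 1 direction. Core genes took 59.0% of the 84155 member UMIs, and the base and lid together took 29.5%. For comparison, the 8 genes of the chaperonin CCT, another large multi-subunit complex, stood at 1207 CPM, and the nuclear Nduf genes of respiratory complex I at 10381 CPM.

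Core subunit transcripts were more abundant than those of the regulatory particle. The α genes summed to 1150 CPM (1135 to 1165) and the β genes to 1319 CPM (1303 to 1335), against 632 CPM (621 to 643) for the base and 601 CPM (590 to 612) for the lid. Per base or lid UMI there were 2.002 core UMIs (1.97 to 2.03). The lid subunit Sem1 (7295 UMIs) and the base subunit Adrm1 (1069 UMIs) are not matched by the name rule and are not in these sums of 24808 base and lid and 49668 core UMIs, so the whole regulatory particle stands nearer to the core than this ratio. The median detected core gene stood at 155 CPM and the median base or lid gene at 57.1 CPM. Within each group the members were unequal, although each finished particle holds its subunits in fixed numbers.

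In the α ring, Psma7 stood far above the others at 408 CPM (399 to 417). Psma3 and Psma2 followed at 175 CPM (170 to 181) and 171 CPM (165 to 177), and their counting intervals overlapped. Psma5 was at 125 CPM, Psma4 at 120 CPM, Psma6 at 86.1 CPM and Psma1 at 64.9 CPM, which is 6.29 times below Psma7. Psma8, the α subunit of germ cell proteasomes, had no UMI. Taking 3 counts as the limit that a count of 0 allows gives up to 0.149 CPM and up to 0.159% of cells with a UMI, which is no limit on the cells that express the gene. UMIs of Psma2 could include some from AW209491, a gene that overlaps it on the same strand. The same holds for Psmd1 with Gm21972 and for Psmg3 with Gm26938.

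In the β ring, Psmb1, a non-catalytic subunit, was the most abundant member of all at 426 CPM (417 to 435), and 92.9% of cells had a UMI of it. The 3 catalytic subunits were unequal: Psmb5, which carries the chymotrypsin-like site, was at 190 CPM (184 to 196), Psmb6, with the caspase-like site, at 138 CPM (133 to 143), and Psmb7, with the trypsin-like site, at 62.6 CPM (59.2 to 66.1). The non-catalytic Psmb4, Psmb2 and Psmb3 lay at 194, 165 and 144 CPM. Psmb11, the β subunit of thymic epithelium, had no UMI, with the same limits as Psma8. Psmb5 (GENCODE M21, GRCm38 chromosome 14, 54614119 to 54618022, minus strand) and Psmb11 (chromosome 14, 54621433 to 54629556, plus strand) are near neighbours, and UMIs were seen of Psmb5 only. The 3 immunoproteasome subunits that can replace the catalytic ones summed to 11.2 CPM (9.82 to 12.8): Psmb10 was at 4.18 CPM, Psmb9 at 3.63 CPM and Psmb8 at 3.43 CPM, each below every detected core gene.

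In the base, Psmd4, a ubiquitin receptor, led at 164 CPM (158 to 170). The ATPases, Psmc1 to Psmc6, ranged from 93.4 CPM for Psmc6 to 32.3 CPM for Psmc4, and Psmc3, Psmc1 and Psmc5 stood close together at 54.9, 53.5 and 51.4 CPM. The large scaffold subunits Psmd2 and Psmd1 were at 83.5 and 57.1 CPM. Among the lid genes matched by name, Psmd8 led at 170 CPM (164 to 176), followed by Psmd7 at 97.0 CPM. Psmd14, the enzyme that cuts the ubiquitin chain from the substrate, was the lowest lid gene at 37.9 CPM (35.3 to 40.7), although Psmd7 is its partner in the complex. The other lid genes lay between 42.5 CPM for Psmd6 and 79.4 CPM for Psmd12.

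The activators summed to 238 CPM (231 to 244). Psme1 was at 91.3 CPM (87.2 to 95.6) and Psme2, which forms a ring with it, at 69.3 CPM (65.7 to 73.1). These genes lie close to each other on chromosome 14, Psme1 from 55578123 to 55581529 on the plus strand and Psme2 from 55587441 to 55591113 on the minus strand. Psme4, a large single-chain activator, was at 54.4 CPM, and Psme3, a nuclear activator, at 21.5 CPM. Psme2b had 21 UMIs (1.04 CPM); it lies wholly within Gm12185 on the same strand and resembles Psme2 in sequence, so its UMIs are uncertain. The inhibitor Psmf1 was at 13.6 CPM. The assembly factors summed to 227 CPM and ran from 46.0 CPM for Psmg4 to 16.3 CPM for Psmg1, both of which are chaperones of the core. Psmd10, Psmd5 and Psmd9, chaperones of the base, were at 40.0, 28.7 and 27.2 CPM. Psmc3ip had 54 UMIs (2.68 CPM).

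Between genes next to each other in the order of levels, the interval of the ratio held 1 in 28 of 44 pairs, so that order is firm only in part. The widest gap among genes with at least 100 UMIs was that between Psma7 and Psmb4, a ratio of 2.11 (2.03 to 2.19).

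**Figure D1:**
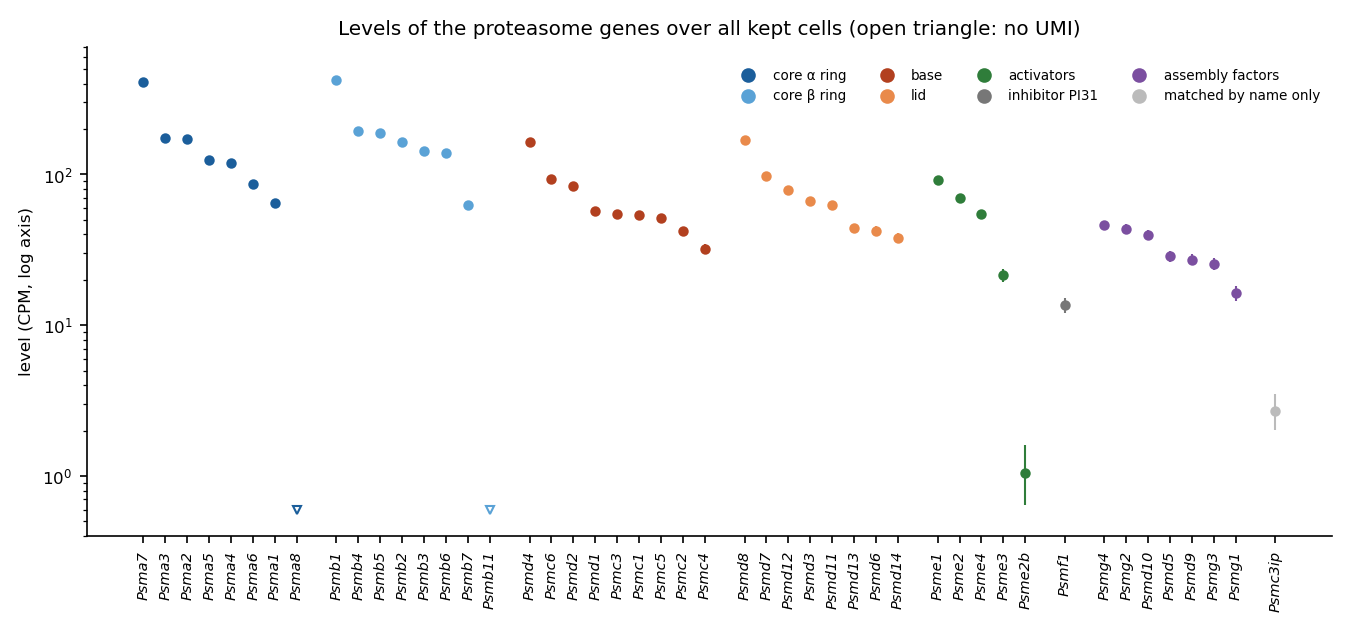
Level of each of the 47 members over the 1892 cells, in CPM on a log axis, grouped by role, with 95% counting intervals as bars. Psmb1 (426 CPM) and Psma7 (408 CPM) stand above all others, and open triangles mark Psma8 and Psmb11, which had no UMI and are drawn at an arbitrary height.

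Other genes of the pathway, from lists written for this work, ranged widely. Sem1, a small lid subunit, was at 363 CPM (354 to 371) and Pomp, the maturation factor of the core, at 304 CPM (297 to 312), both above all base and lid members. Adrm1, a ubiquitin receptor of the base, was at 53.1 CPM and Ecpas, a proteasome scaffold, at 27.7 CPM. Nfe2l1 was at 79.0 CPM (75.1 to 83.0) and Nfe2l2 at 183 CPM (177 to 189). The ubiquitin gene Ubb was at 1219 CPM, and Vcp, the segregase that extracts substrates for the proteasome, at 107 CPM.

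To describe coordination, each gene's share of a cell's UMIs was correlated over the 1892 cells with the summed share of the members, itself left out. These points share 1 library, and low counts hold such correlations near 0, so they are given as descriptions. The median Pearson r was 0.113 over the 43 members with a UMI in at least 10% of cells and 0.0126 over all 6490 such genes. Of the 43 members, 23 (53.5%) had an r of at least 0.1, against 11.6% of all genes. Such values were not particular to the members: 32 of 37 Nduf genes (86.5%) reached 0.1 with the same sum, with a median of 0.183. By role, the median was 0.222 for core β, 0.173 for core α, 0.109 for the lid, 0.0996 for the base, 0.0836 for the activators and 0.0559 for the assembly factors, groups that also differ in level.

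The β subunits Psmb3, Psmb4 and Psmb2 had r of 0.284, 0.253 and 0.243, and Psma7 had 0.264. Psmd7, at 0.198, was the highest outside the core. Psmb1 went against this pattern: although the most abundant member, its r was 0.0225. Its share also varied least beyond counting among the 14 detected core genes, with an excess coefficient of variation (what remains after counting noise is subtracted) of 18.2%, against 37.9% for Psma7, 47.9% for Psmb4 and 61.5% for Psmb3. Psme4 was the 1 gene of the 43 with a negative value, -0.0726, although its pair with Psmd3 reached 0.123. Psma5 (0.0616) and Psmd4 (0.0544) were also low for their level.

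**Figure D2:**
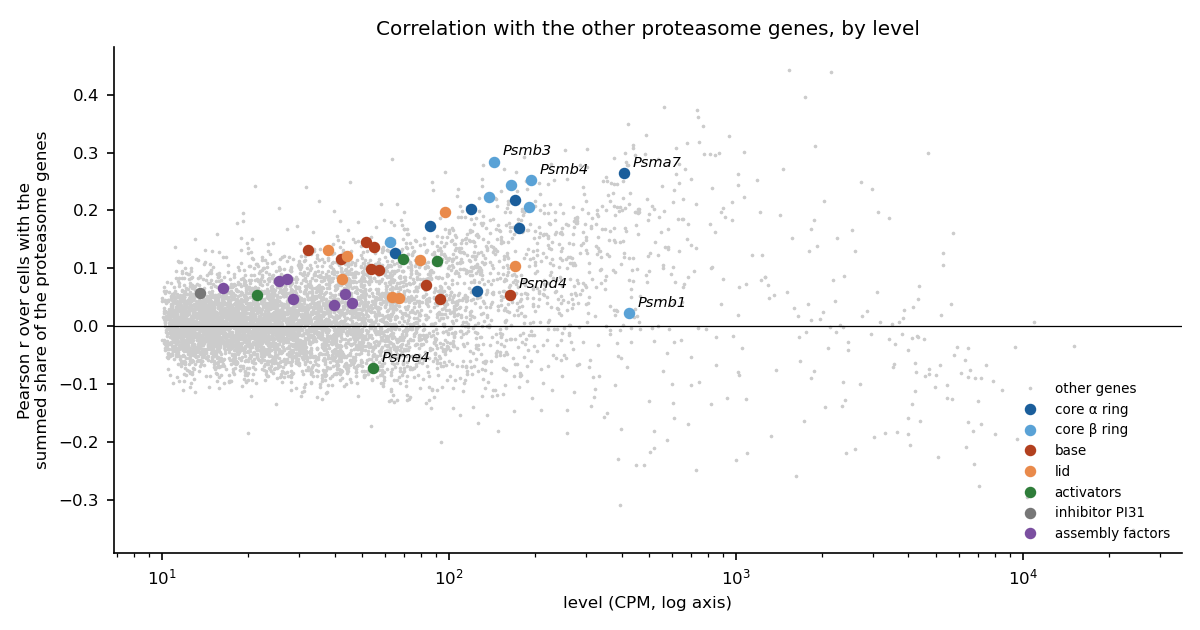
Pearson r over 1892 cells of each gene's share of UMIs with the summed share of the members (itself left out), against its level in CPM on a log axis. Coloured points are the 43 members and grey points the other genes with a UMI in at least 10% of cells; most members lie above 0, with Psmb3 at 0.284, while Psmb1 sits at 0.0225 and Psme4 below 0.

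Single pairs showed little at this depth. Of 903 pairs of members, 42 (4.65%) had an r of at least 0.1, against 1.6% of all pairs of the 6490 genes. Among pairs of core genes the share was 29.7%, among pairs within the base and lid 1.47%, and among pairs of a core with a base or lid gene 3.36%. These shares are not at equal depth. The median detected core gene stood at 155 CPM and the median base or lid gene at 57.1 CPM, and low counts hold r near 0. The highest pair was Psmb2 with Psmb5, at 0.176. Outside the core the highest was the ATPase gene Psmc4 with the lid gene Psmd3, at 0.148. Psme1 and Psme2, partners in 1 ring, had an r of 0.121, the highest of any pair of activators.

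Summed by role, the core and the regulatory particle varied together, and the activators followed the core less closely. The α and β shares had a Pearson r of 0.302 (Spearman 0.279), and the core and the base plus lid 0.276 (Spearman 0.259). After the counting noise expected from Poisson sampling was subtracted from the variances, these became 0.749 and 0.644. For base with lid, r was 0.154, or 0.667 after subtraction. Thinning cells to 3000 UMIs lowered the unsubtracted values to 0.135 for α with β, 0.136 for core with base plus lid and 0.0724 for base with lid, and the subtracted ones were then 0.652, 0.610 and 0.702. The activators with the core had 0.0920, or 0.368 after subtraction. The subtracted value was 0.502 after thinning, nearer to the 0.610 of core with base plus lid, and 0.487 in the cells of multiplexing tag CMO301 against 0.311 in those of CMO302. Over all cells the activators had, after subtraction, 0.562 with α and 0.154 with β, and 0.123 with the base and 0.422 with the lid. By ring, α had values after subtraction of 0.614 with the base and 0.564 with the lid, and β had 0.278 with the base and 0.817 with the lid. Before subtraction these were 0.199, 0.155, 0.0937 and 0.235. They have no interval, and neither thinning nor the split by tag was run for them, so a difference between the rings is not established. Single genes also weigh on these sums: Psmb1 held 8562 of the 26529 β UMIs and Psmd4 3298 of the 12719 base UMIs. The summed member share had an r of 0.0494 with the natural log of a cell's UMIs, so it was nearly flat with depth. Removing the mean of each cluster of cells (described below) left 0.263 for α with β and 0.254 for core with base plus lid. Within single clusters, r of core with base plus lid ran from 0.0685 in cluster 4 (305 cells) to 0.490 in cluster 6 (101 cells), and was 0.467 in cluster 7 (61 cells).

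The core also varied with the genes of respiratory complex I. Core and Nduf shares had an r of 0.567, or 0.358 after thinning. When the Nduf UMIs were sampled down to the number of member UMIs, r was 0.517, and within clusters it ran from 0.421 in cluster 2 to 0.636 in cluster 7. The sampled Nduf share still rests on more UMIs than the base plus lid share (84155 against 24808), so 0.517 and the 0.276 of core with base plus lid are not at equal depth. After counting noise was subtracted, these values were 0.844 and 0.644. The base and lid had an r of 0.158 with the sampled Nduf share. Of single genes, 8 of 43 members had a higher r with the sampled Nduf share than with the other members: 4 of 7 β, 1 of 7 α, 0 of 9 base, 1 of 8 lid, 0 of 4 activator and 1 of 7 assembly genes, and Psmf1. The same count was not made over all genes, so these counts have no share to be read against. The member total had an r of 0.159 with the chaperonin genes, -0.0990 with the ribosomal protein genes and -0.286 with the mitochondrially encoded genes. As shares of 1 total, all of these are bound to each other.

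The 10 genes outside the set with the highest r to the summed members were Prdx1 (0.443), Ppia (0.439), S100a11, Ndufa4, Dbi, Elob, Atp5g1, Atpif1, Atp5k and H2afz (0.329). Prdx1 encodes a peroxidase, Ppia a prolyl isomerase and Atp5g1 a subunit of the mitochondrial ATP synthase. They are abundant genes, from 421 CPM for Atp5g1 to 2148 CPM for Ppia. The lowest values belonged to the nuclear noncoding RNAs Malat1 (-0.353) and Neat1 (-0.309).

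**Figure D3:**
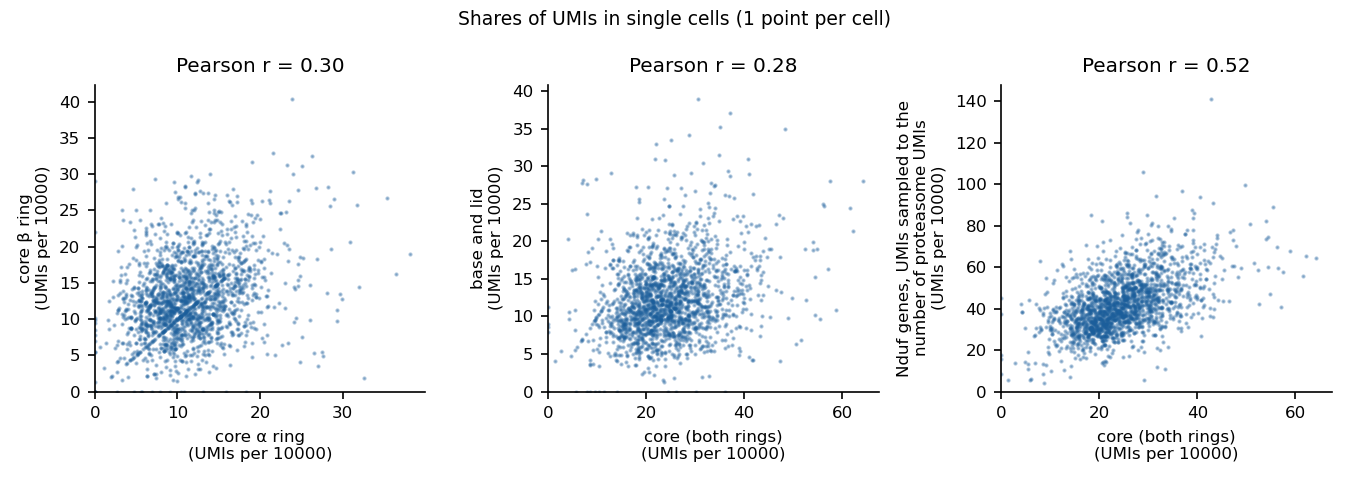
Shares of UMIs per 10000 in single cells, 1 point per cell, for core α against core β, core against base plus lid, and core against Nduf genes sampled to the number of member UMIs. Pearson r was 0.30, 0.28 and 0.52, and the sampled Nduf share rests on more UMIs than the base plus lid share.

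Cells differed in their proteasome share by more than counting. The observed coefficient of variation of the summed share was 28.0%, counting alone gives 17.8%, and the excess was 21.6%. For the Nduf genes the excess was 26.5%, for the chaperonin genes 18.6% and for the ribosomal protein genes 18.9%. In a single cell the median level was 4050 CPM, and the quartiles lay at 3389 and 4836 CPM.

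Clustering the cells without the members, their pathway lists and the cell cycle genes gave 7 clusters of 469, 401, 311, 305, 244, 101 and 61 cells. In order they were led by Cxcl2, Ly6m, Gkn1, Aox3, Psca, Aspm and Cyba. Only cluster 6, with the markers Hmmr, Aurka and Ccnb1 among its 10 leading genes, could be named, as proliferating-like. The members did not enter the clustering, so their levels were compared across clusters.

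The summed level was 4109, 3811, 4038, 4138, 4469, 4681 and 5679 CPM in clusters 1 to 7. Cluster 7 was highest and cluster 2 lowest. In cluster 2, led by Ly6m, the ratio of the sum to the other cells was 0.883 (0.869 to 0.897), and 28 of the 43 members with at least 100 UMIs had an interval below 1, against 21.8% of all genes with as many UMIs. Intervals narrow with more UMIs. Of the 43 members 40 had at least 500 UMIs, against 3850 of the 8653 genes, so counts by interval lack a like background. In cluster 2 the median ratio of the base genes was 0.838, close to that of α (0.841), β (0.828) and lid genes (0.816). The base sum, however, was at 0.9995 (0.960 to 1.040), with its most abundant gene, Psmd4, at 1.30 (1.20 to 1.39). The number of core UMIs per base or lid UMI lay between 1.87 (1.81 to 1.92) in cluster 2 and 2.33 (2.23 to 2.45) in cluster 5. In cluster 5, led by Psca, the core had a ratio to the other cells of 1.14 (1.11 to 1.17), while base plus lid had 0.961 (0.922 to 1.002). The activators were lowest in cluster 3, at 0.724 times the others (0.649 to 0.807).

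**Figure D4:**
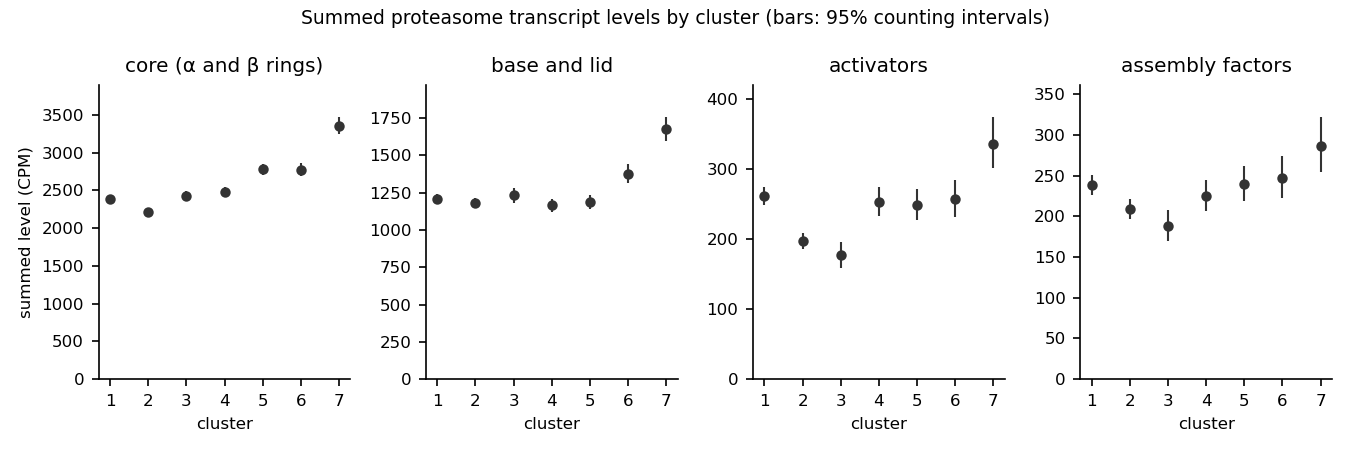
Summed level in CPM of core, base plus lid, activators and assembly factors in each of 7 clusters of cells, with 95% counting intervals as bars and axes from 0. All 4 sums are highest in cluster 7 (61 cells), and in cluster 5 the core is above clusters 1 to 4 while base plus lid lies within their range.

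Cluster 7 differed most. Its members summed to 5679 CPM (5533 to 5829), against 4104 CPM in the other cells, a ratio of 1.38 (1.35 to 1.42). The core and the base plus lid had the same ratio, 1.38 each, and the activators had 1.45 (1.29 to 1.62), compared with 1.13 for Nduf and 1.18 for chaperonin genes. Of the 43 members with at least 100 UMIs, 19 (44.2%) were at least 1.5 times higher, against 21% of the 8653 genes with as many UMIs, and 1 was lower by that factor, against 17.2%. In coarser clusterings, at resolution 0.3 and with 1000 variable genes, the best matches of cluster 7 held 154 and 155 cells. There 9 (20.9%) and 8 (18.6%) members were higher, near the 15.3% and 15% of all genes, and 0 were lower, against 6.25% and 5.73%. The median ratio was 1.40 for members and 1.05 for all genes, and 41 of 43 members were above 1, against 54.5% of all genes. The interval left out 1 on the high side for 29 members (22.5% of all genes) and on the low side for 2 (14.6%), with the limit on counts by interval given above. Over genes with at least 500 UMIs, 18 of 40 members (45%) were at least 1.5 times higher, against 15.1% of genes. By that factor 1 was lower, against 15.2%.

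By role, 4 of 7 α, 5 of 7 β, 5 of 9 base, 3 of 8 lid, 1 of 4 activator and 0 of 7 assembly genes were at least 1.5 times higher, and so was the inhibitor Psmf1, whose interval held 1. The ATPase gene Psmc3 was at 123 CPM in cluster 7 and between 42.6 and 73.8 CPM in each other cluster, a ratio to the other cells of 2.39 (1.96 to 2.88). Psmc4 and the scaffold gene Psmd1, which overlaps Gm21972, had ratios of 2.19 and 2.04. Among the others were Psmd14 (2.01), Psma1 (1.999), Psmd13 (1.99), Psmb3 (1.88), Psmd6 (1.86) and Psma4 (1.83).

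Psmb3 was highest in the 3 clusters with the highest totals: it was at 129, 108, 143, 157, 178, 187 and 259 CPM in clusters 1 to 7. Psmb1 ran the other way. It was at 414, 427, 465, 455, 452, 379 and 349 CPM in clusters 1 to 7, lowest in the pair of clusters with the highest totals, and its ratio in cluster 7 was 0.812 (0.727 to 0.903). The lid gene Psmd3 was the 1 member lower by at least 1.5 times, at 42.8 against 68.4 CPM, a ratio of 0.626 (0.451 to 0.848) on 43 UMIs in cluster 7. Psmd4 and Psmd8, the most abundant base and lid genes among the members, had ratios of 1.003 and 1.004.

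Cluster 7 stood apart in other ways. Cycling and depth were limited in the comparisons that close this paragraph, and the part of the other differences in the result was not tested. Its cells had a median of 14450 UMIs, the most of any cluster, 63.9% were scored as cycling, and 52.5% had a UMI of a Y-linked gene, against at most 1.93% of the cells in any other cluster. It also had the lowest median mitochondrial share, 3.01%, and the lowest summed level of 12 stress genes such as Fos, Atf3 and Hspa1a, 2170 CPM against 3038 to 4969 CPM elsewhere. Over all cells the member share had an r of -0.171 with the stress genes. Against only the cycling cells of the other clusters, the ratio of the member sum was 1.29 (1.253 to 1.331), and 15 of the 41 members with at least 100 UMIs in those cells were at least 1.5 times higher (36.6%), against 14.5% of all genes. A minimum depth, set as a fraction of the median UMIs of cluster 7, kept 1174 cells. Among them the ratio of the member sum was 1.39 (1.35 to 1.43). There 20 of 43 members (46.5%) were at least 1.5 times higher, against 20.5% of all genes. By that factor 1 was lower, against 17.5%. Neither comparison was planned beforehand.

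Of the 29 other pathway genes, 10 were at least 1.5 times higher in cluster 7 (21% of all genes with at least 100 UMIs) and 0 lower (17.2%), with a median ratio of 1.16. The 10 include Psmb8, Ngly1 and Nploc4, whose intervals held 1, and Psmb8 and Psmb10 had under 100 UMIs. Nfe2l2 had a ratio of 2.71 (2.45 to 2.99), while for Nfe2l1 it was 0.812 (0.624 to 1.04). The deubiquitinases Usp14 and Uchl5, which act on the proteasome, had ratios of 2.29 and 2.09, and Vcp of 2.03. The immunoproteasome gene Psmb10 had the highest, 4.83 (2.66 to 8.32), on 84 UMIs in the library. Psmb8 had 1.81 (0.641 to 4.17) and Psmb9 0.816 (0.164 to 2.48).

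**Figure D5:**
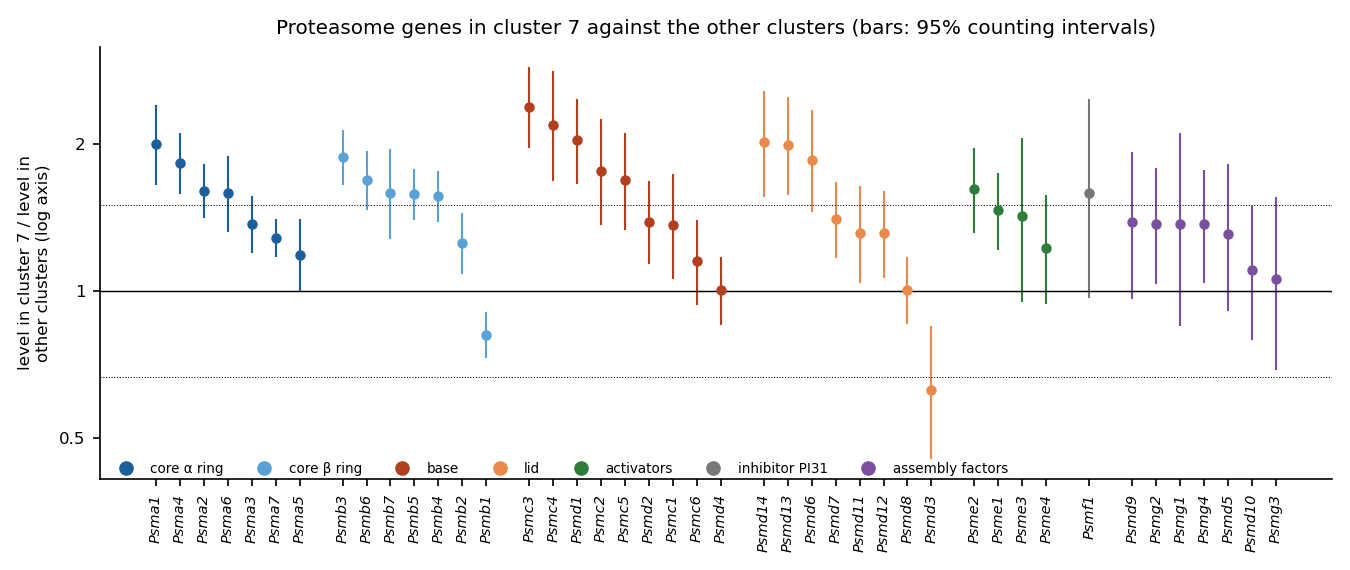
Ratio of the level in cluster 7 (61 cells) to that in all other cells for the 43 members with at least 100 UMIs, on a log axis, grouped by role, with 95% counting intervals; dotted lines mark 1.5 times higher and lower. Most points lie above 1, 19 lie above the upper line, and Psmb1 (0.812) and Psmd3 (0.626) lie below 1.

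The other clusters moved few members past 1.5 times. None of the 43 did so in cluster 1 (9.82% of all genes were higher by that factor and 4.03% lower) or in cluster 4 (1.63% and 17.5%). In cluster 2, 0 were higher (6.29% of all genes) and 2 lower (9.37%), namely Psmb4 (0.661) and Psmd6 (0.665). In cluster 3, 1 was higher (2.6%), Psmd4 at 1.501 (1.36 to 1.65), and 2 were lower (28%), Psme1 at 0.585 and Psmg2 at 0.654. In cluster 5, 0 were higher (2.16%) and Psme4 was lower (21.4%), at 0.619 (0.480 to 0.786). In cluster 6, Psmd14 was higher (11.8%), at 1.56 (1.22 to 1.97), and 0 were lower (5.89%). Psmb4 came next there, at 276 CPM and a ratio of 1.47 (1.32 to 1.64), and Psmb1 was at 0.882 (0.807 to 0.963). In clusters 3 to 5, where 17.5% to 28% of all genes were lower, at most 2 members were.

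Psmd4 and Psme1 differed in clusters 2 and 3. Psmd4 was at 132, 197, 234, 135, 155, 136 and 164 CPM in clusters 1 to 7, highest in clusters 2 and 3. Psme1 was at 99.2, 69.8, 55.7, 107, 108, 110 and 131 CPM, lowest in those same clusters. In the other clusters both were highest in cluster 7. Cells of cluster 3 were shallow, with a median of 5825 UMIs, and those of cluster 2 deep, with 12072.

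Cells were also scored by cell cycle phase, which put 265 in S, 175 in G2/M and 1452 in G1. The member sum was 4641 CPM (4578 to 4704) in the 440 cells scored S or G2/M and 4049 CPM in G1, a ratio of 1.15 (1.13 to 1.16). It was 1.10 in S and 1.19 in G2/M, with median depths of 7037, 11270 and 8606.5 UMIs in S, G2/M and G1. The base, lid and core moved alike, at 1.17, 1.16 and 1.15, and the interval of the activators, 1.05 (0.982 to 1.12), held 1. Of 43 members, 1 was at least 1.5 times higher, against 6.74% of all genes, and none was lower, against 1.85%. The median ratio was 1.15 for members and 1.03 for all genes, 40 of 43 members were above 1 (56.2% of all genes), and for 23 the interval lay above 1 (18.5%). The limit on counts by interval given above holds here too. Over genes with at least 500 UMIs, 1 of 40 members (2.5%) was at least 1.5 times higher, against 3.27% of genes. The 1 member past 1.5 times was Psmd14, at 52.7 CPM in cycling cells and 33.6 CPM in G1 cells, a ratio of 1.57 (1.34 to 1.83). With phases scored after thinning cells to 3000 UMIs it was at 1.251 (1.08 to 1.45), and with cycling cells called by a UMI of Mki67 or Top2a at 1.21 (1.04 to 1.40), and 0 members then passed 1.5 times (4.10% and 5.43% of all genes were higher by that factor). Psmb4 was at 240 and 180 CPM, a ratio of 1.33 (1.24 to 1.43). Psmb1 was lower, at 394 and 435 CPM, a ratio of 0.906 (0.859 to 0.954), and was the 1 member of the 43 whose interval lay below 1, against 9.2% of all genes. All 101 cells of cluster 6 and 63.9% of those of cluster 7 were scored as cycling. The Psmb1 and Psmd14 values here are therefore not independent of those in clusters 6 and 7.

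Without cluster 7 the ratio of the sum was 1.09 (1.07 to 1.11). No member then passed 1.5 times in either direction, against 4.89% of all genes higher and 2.13% lower, and Psmd14 was at 1.47 (1.24 to 1.75). Psmc3ip, the recombination factor matched by name only, was at 7.69 CPM in cycling cells and 1.22 CPM in G1 cells, a ratio of 6.30 (3.51 to 11.7) on 54 UMIs. Of the 29 other pathway genes, Psmb10 alone was at least 1.5 times higher in cycling cells (6.74% of all genes with at least 100 UMIs), at 1.71 (1.05 to 2.74) on 84 UMIs. Nfe2l1 stood at 0.751 (0.658 to 0.854) and Zfand5, which promotes proteasome activity, at 0.811 (0.751 to 0.876).

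The level was nearly the same across depths and multiplexing tags, the oligonucleotide labels that mark cells before pooling. In 3 equal groups of cells ordered by UMIs, the member sum was 4179, 4195 and 4179 CPM. Cells whose highest tag was CMO301 (1062 cells) and CMO302 (830 cells) stood at 4175 and 4193 CPM, and the labels do not say what the tags separate.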

How the data were processed

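The deposited matrix holds raw UMI counts per gene and barcode, with no normalization by the authors. Per the file headers, Cell Ranger 6.1.2 wrote it. The design text names GRCm38/mm10 as the genome, and the annotation used for counting is not given in the sources used here. The 12 tag features stayed out of library sizes. Members and lists were chosen with earlier results of these data known. All members were named, with the pathway lists, the 10 genes best correlated with the member sum and the leading genes of clusters. Doublets were called with Scrublet in scanpy 1.11.5 (12 of 1892 cells, 0.634%) and kept.

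Intervals are exact Poisson for CPM, Clopper-Pearson for shares of cells and conditional binomial for ratios. Gene annotation for overlaps was GENCODE M21. Clusters came from counts scaled to 10000 per cell, the 2000 most variable genes, 30 principal components, 15 neighbours and Leiden clustering (leidenalg 0.10.2, resolution 0.6, seed 0). Leading genes have the largest fold in a cluster among those with 50 or more UMIs there, seen in 10% or more of its cells. Cell cycle phases were scored with scanpy. Free RNA was not estimated. The steps were tested on simulated data.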

Additional observations from a re-analysis of the deposited data

How the results depend on the processing

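Under 21 other settings, 393 values for 44 results were computed. For the chief results, 42 of these lay inside the counting interval (for counts of members, correlations and coefficients of variation, inside 1.5 times or, for correlations, both under 0.1 in size) and 10 did not. For the rest, 289 did and 52 did not. The sign turned for 2 results that were near no effect: the activator cycling ratio of 1.05, whose interval held 1, was 0.980 without cluster 7, and the Psmb1 correlation of 0.0225 was -0.0102 under a stricter cell filter (1000 genes, 10% mitochondrial UMIs) and -0.0208 in CMO301 cells. The cycling ratio of 1.15 was 1.10 as a mean over cells, 1.09 with phases scored after thinning cells to 3000 UMIs, 1.09 without cluster 7 and 1.08 by a UMI of Mki67 or Top2a. Thinning also lowered the correlation of core with base plus lid from 0.276 to 0.136 and the median member correlation from 0.113 to 0.0568, and left out 57 shallower cells. The member sum was 4104 CPM without cluster 7. The ratio of cluster 7 was 1.24 at resolution 0.3, where its best match held 154 cells, 1.24 with 1000 variable genes, where it held 155, and 1.29 against cycling cells, an alternative chosen after the data had been seen. The 19 members higher in cluster 7 became 9 and 8 in those clusterings (15.3% and 15% of all genes), 34 at the smaller fold tried (34.3%) and 4 at a fold of 2 (8.91%, near the 9.30% of members). The 1 higher in cycling cells became 13 and 0 at those folds (16.9% and 2.75%). It became 2 with cells of 200 or more genes (6.69%), with the stricter cell filter (6.89%) and over genes with 20 or more UMIs (11.1%), and 3 in CMO302 cells (4.69%). It became 0 without cluster 7 and under both other calls of cycling cells. The Psmd3 interval held 1 in both clusterings, with ratios of 0.868 and 0.908, and in the cells of CMO302, with 0.697. As a mean over cells the Psmd3 ratio was 0.746, which is short of 1.5 times lower. Depth limits values of single genes: the median detected member had 63.2 CPM. The causes of these shifts were not tested. No paired analysis was possible because the data are a single library.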
